A study of Homo sapiens with 24 samples.

Results

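The genes described here are those of MHC class I antigen presentation in SKBR3 cells: the heavy chain genes HLA-B, HLA-C, HLA-E and HLA-F, the light chain gene B2M, the peptide transporter genes TAP1 and TAP2, the tapasin gene TAPBP and the peptide trimming gene ERAP1. They were taken by gene symbol from the deposited table, in which 9 of 60617 rows carried these symbols, and 8 of them were among the 13536 genes with enough counts to test. HLA-F was too low. SKBR3 is an established line from a human breast carcinoma that carries extra copies of ERBB2, which encodes HER2, and all 3 groups of 8 polyA RNA libraries came from it. Herceptin (trastuzumab) is an antibody against HER2. One group was untreated, another received Herceptin and the other received the biosimilar ApoTras. Cells were seeded at 6500 per cm2 in 6-well plates and their RNA was taken on day 7. Herceptin was given at 4 µg/ml in phosphate-buffered saline, and the protocol does not clearly state whether the same dose applied to the biosimilar. The labels name no group given saline alone or an unrelated antibody, and no batch. The study asked how alike the mRNAs of cells given either antibody are.

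Class I molecules display peptides from inside the cell to cytotoxic T cells. Proteasomes cut cytosolic proteins into peptides, the transporter formed by TAP1 and TAP2 carries them into the endoplasmic reticulum, and ERAP1 trims them to a length that fits. Tapasin holds an empty heavy chain, paired with the light chain beta-2 microglobulin, next to the transporter until a peptide is bound. HLA-B and HLA-C are classical heavy chains that differ widely between people, whereas HLA-E and HLA-F vary little. HLA-E presents mainly signal peptides of other class I chains to a receptor of natural killer cells, and HLA-F is mostly found inside cells. Interferons, NF-kB and the coactivator NLRC5 are known to raise transcription of many of these genes.

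Because the promoters of this group are textbook targets of interferon response factors, the 250 bases upstream of the RefSeq start (GRCh38.p14) are shown for 5 genes, covering the classical heavy chains, the light chain, and a transporter and a loading gene that behaved differently. Capitals mark the bases matched by either of 2 interferon-type elements, a short one (AANNGAAA) and a full one (GAAA, any 2 bases, GAAA), searched on both strands, which overlap each other. The windows, read 5′ to 3′ along the gene, were chr6:31357180-31357429 for HLA-B (minus strand), chr6:31272093-31272342 for HLA-C (minus), chr15:44711267-44711516 for B2M (plus), chr6:32853705-32853954 for TAP1 (minus) and chr6:33314079-33314328 for TAPBP (minus).
HLA-B: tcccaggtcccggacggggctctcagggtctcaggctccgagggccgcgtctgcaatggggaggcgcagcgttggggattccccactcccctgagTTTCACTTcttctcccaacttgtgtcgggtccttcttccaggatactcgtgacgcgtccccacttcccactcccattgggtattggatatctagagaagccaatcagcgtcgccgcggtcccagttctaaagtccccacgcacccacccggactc
HLA-C: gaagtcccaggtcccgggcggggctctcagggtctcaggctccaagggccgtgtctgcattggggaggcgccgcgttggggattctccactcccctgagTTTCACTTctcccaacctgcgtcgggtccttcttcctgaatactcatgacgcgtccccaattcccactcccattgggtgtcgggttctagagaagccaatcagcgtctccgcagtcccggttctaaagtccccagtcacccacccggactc
B2M: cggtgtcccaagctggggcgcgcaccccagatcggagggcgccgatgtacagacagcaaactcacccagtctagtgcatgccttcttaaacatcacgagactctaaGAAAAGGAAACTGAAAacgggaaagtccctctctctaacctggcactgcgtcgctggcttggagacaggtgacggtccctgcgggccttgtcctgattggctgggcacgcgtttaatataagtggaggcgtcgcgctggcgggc
TAP1: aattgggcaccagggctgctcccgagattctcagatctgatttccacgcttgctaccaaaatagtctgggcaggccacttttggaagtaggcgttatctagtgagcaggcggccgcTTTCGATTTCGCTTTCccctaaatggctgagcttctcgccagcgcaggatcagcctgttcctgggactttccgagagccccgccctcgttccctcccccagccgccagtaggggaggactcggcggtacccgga
TAPBP: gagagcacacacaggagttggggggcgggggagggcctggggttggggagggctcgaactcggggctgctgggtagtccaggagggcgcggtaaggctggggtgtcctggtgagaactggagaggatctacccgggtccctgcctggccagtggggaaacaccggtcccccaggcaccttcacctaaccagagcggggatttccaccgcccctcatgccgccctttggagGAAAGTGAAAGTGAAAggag

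The upstream bases of HLA-B and HLA-C were 89% identical, at 226 of 254 aligned columns. Both held 1 short element, 155 to 148 bases before the start in HLA-B and 151 to 144 in HLA-C. B2M, TAP1 and TAPBP each held 2 overlapping full elements. In TAPBP these lay 20 to 5 bases before the start. Of the 9 genes, 8 had a window in the RefSeq table, extended to 50 bases past the start for the search, and each of the 8 held the short element, against 22.8% of 35116 windows of the same length. The full element was present in 3.57% of those windows. In ERAP1 the match lay 3 to 12 bases past the start. The kappaB-type letters (GGGA, any base, T, any 2 bases, CC) were found in 5.13% of windows on either strand. They were present upstream of HLA-B, HLA-C, B2M and TAP1 and had no match in HLA-F, TAP2, TAPBP or ERAP1. The search fixed an A after GGG, so that it passed over GGGGATTTCC, which lies in the TAPBP window. A missing match is thus not the absence of every kappaB-type site. The letters TGACG (24.6% of windows) occurred once in HLA-B, HLA-C, B2M and TAP2, and CCAAT (34.6% of windows) occurred in all but TAP2 and TAPBP. These matches are descriptions of the letters. Whether the interferon-type letters bear on any change of mRNA with the antibodies was not tested.

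Library totals ran from 9070186 to 12260086 expected counts, with group means of 9982334 in control, 11489206 under Herceptin and 10271052 under the biosimilar. Levels are given as CPM, counts per 1000000 counts of a library scaled for its composition, and adjusted p-values are from edgeR's quasi-likelihood test with Benjamini-Hochberg adjustment over all genes tested. Markers of the line were high in control, with ERBB2 at 4174 ± 116 CPM and the keratin gene KRT8 at 5070 ± 286 (SD, n = 8). Markers of leukocytes, which express class I highly, were near 0 apart from CD68 and CSF1R: the other 10 of the 12 together held 0.942 to 2.33 CPM per library, and the counts of PTPRC, the gene of the leukocyte antigen CD45, summed to 6 in control, 3 under Herceptin and 7 under the biosimilar. CD68 and CSF1R rose with both antibodies and brought the summed level of all 12 markers to 47.35 to 57.91 CPM in control, 74.27 to 80.02 with Herceptin and 64.63 to 81.08 with the biosimilar. All libraries came from the cultured SKBR3 line, and the labels name no other cells. Which cells held the CD68 and CSF1R mRNA was not tested, nor was any part of leukocytes in the class I values. In bulk RNA, fewer cells that express a gene and less RNA per cell cannot be told apart.

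Per unit of length, as TPM, in which the length-scaled values of a library sum to 1000000, the light chain was by far the most abundant of the group. In untreated cells B2M (chromosome 15, 44711487 to 44718877, GENCODE v29 on GRCh38) stood at 2470 ± 178 TPM (SD, n = 8), 22.6 times the level of HLA-E at 109.4. TAPBP followed at 40.43, TAP2 at 32.3, TAP1 at 27.01, ERAP1 at 6.213, HLA-C at 3.105 and HLA-B at 2.273 TPM. HLA-F was last at 0.3186 TPM. The control libraries of TAPBP and TAP2 overlapped, as did those of TAP2 and TAP1 and those of HLA-C and HLA-B, while the other steps of the order were free of overlap. Within single control libraries TAPBP was above TAP2 in 8 of 8, TAP2 above TAP1 in 7 of 8 and HLA-C above HLA-B in 7 of 8. HLA-E made up 95.05% ± 0.668 of the summed TPM of these 4 heavy chain genes in control, 93.32% ± 0.639 under Herceptin and 93.6% ± 0.479 under the biosimilar (SD, n = 8 each). The ratio of B2M to the same sum was 21.51 ± 2.01, 21.39 ± 1.47 and 20.35 ± 1.24 in that order. All 9 genes together held 0.2692% of TPM in control, 0.2722% under Herceptin and 0.2611% under the biosimilar.

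**Figure D1:**
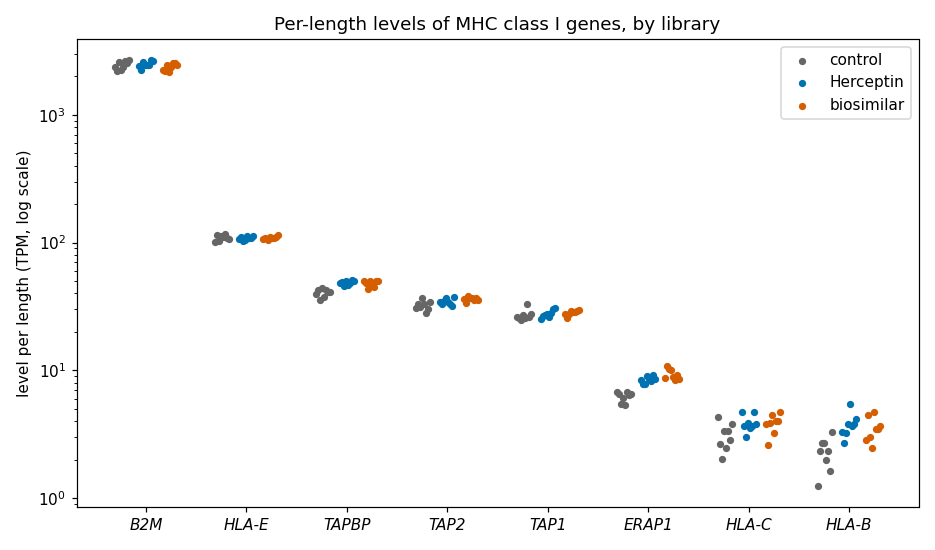
Level per length (TPM, log axis) of the 8 tested genes, ordered by their mean in control; each point is 1 library, grey for control, blue for Herceptin and orange for the biosimilar. B2M lies near 2470 TPM, HLA-E near 109.4, and HLA-C and HLA-B at the low end near 3.105 and 2.273 in control.

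With Herceptin, 3 of the 8 tested genes rose against untreated cells, HLA-B, TAPBP and ERAP1, and 0 fell, where 46.4% of all tested genes passed the test and 22.7% rose. With the biosimilar the same 3 genes and TAP2 rose and 0 fell, where 48% of all genes passed and 23.4% rose. The median log2 fold change of the 8 was 0.17 with Herceptin and 0.16 with the biosimilar, and that of all genes was close to 0 in both (-0.00052 and -0.0026). The shares that rose, 37.5% and 50%, rest on 8 genes, and with so many genes changed throughout the transcriptome nothing particular to this group can be read from them. Both comparisons share the control libraries. Nothing in the labels ties the replicates to separate cultures beyond their number, so that p-values cover the spread among these libraries alone, and it may be technical.

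HLA-B (chromosome 6, 31269491 to 31357188, minus strand) had the largest fold change of the group with Herceptin, at very low levels. In control its lowest, median and highest libraries stood at 1.119, 2.083 and 3.014 CPM, which is 11.01 to 32.29 expected counts. With Herceptin they stood at 2.417, 3.281 and 4.97 CPM, and with the biosimilar at 2.073, 3.118 and 4.233. The groups overlapped, with 5 of 8 libraries of each antibody above the highest control and 8 of 8 (Herceptin) and 7 of 8 (biosimilar) above the control median. HLA-B rose 1.61-fold with Herceptin (log2 fold change 0.69, SE 0.167, edgeR adjusted p = 0.000679) and 1.49-fold with the biosimilar (0.57, SE 0.172, edgeR adjusted p = 0.00501), where ERAP1 had a log2 fold change of 0.54.

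HLA-C (chromosome 6, 31268749 to 31272130, minus strand) was higher in the mean with each antibody and did not pass the test. Its control libraries ran from 2.018 through a median of 3.012 to 4.273 CPM. With Herceptin they ran from 2.959 through 3.679 to 4.585, and with the biosimilar from 2.405 through 3.823 to 4.56. The groups overlapped over most of their range. The log2 fold change was 0.29 with Herceptin (SE 0.136, 95% interval 0.017 to 0.57, edgeR adjusted p = 0.0758) and 0.26 with the biosimilar (SE 0.139, interval -0.021 to 0.54, edgeR adjusted p = 0.123). It passed with Herceptin when any 1 of control replicate 1, control replicate 8 or Herceptin replicate 3 was left out (edgeR adjusted p = 0.0259, 0.038 and 0.0432; 0.0259 to 0.19 over all alternatives). With the biosimilar it passed without control replicate 1 or biosimilar replicate 2 (edgeR adjusted p = 0.0452 and 0.0467; 0.0452 to 0.275 over all alternatives).

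The split between HLA-B and HLA-C is uncertain. RSEM shares a read among the places it maps to, which leaves fractional counts, and those of HLA-B had fractions in 22 of 24 libraries and those of HLA-C in 23. In 16 of the 22 libraries the fractions of HLA-B and HLA-C summed to a whole number, within the rounding of both values. For any other gene this held in at most 5. The annotated span of HLA-B also covers most of HLA-C on the same strand. Their summed level, a quantity chosen after seeing the data, does not depend on how reads were divided between them. It stood at 5.148 ± 0.901 CPM in control (SD, n = 8, 4.269 to 6.971), 7.164 ± 0.891 under Herceptin (5.918 to 8.534) and 6.803 ± 0.621 under the biosimilar (6.219 to 7.785). The groups overlapped because 1 control library, replicate 8, stood at 6.971 while the other 7 lay below the lowest library of either antibody. The sum rose by a log2 fold change of 0.47 with Herceptin (SE 0.0972, edgeR adjusted p = 9.77e-05) and 0.40 with the biosimilar (SE 0.0995, edgeR adjusted p = 0.000952).

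HLA-E (chromosome 6, 30489467 to 30494205, plus strand), the heavy chain that makes up most of the heavy chain mRNA counted here, was nearly level. Its libraries spanned 170 to 193.1 CPM in control with a median of 182.9, 170.6 to 192.1 with Herceptin (median 177.7) and 168.2 to 186.1 with the biosimilar (median 178.1). The ranges almost coincide. The log2 fold changes were -0.026 (SE 0.03, 95% interval -0.086 to 0.035, edgeR adjusted p = 0.52) and -0.048 (SE 0.0302, interval -0.11 to 0.013, edgeR adjusted p = 0.193). HLA-F (chromosome 6, 29722775 to 29738528) had 0 counts in 4 of 8 control, 5 of 8 Herceptin and 7 of 8 biosimilar libraries, and at most 2 in any library, under the limit of 3 counts that a count of 0 allows. A change of HLA-F was not detectable at this depth.

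B2M, the light chain shared by every class I molecule, did not pass with either antibody when only the 3 groups were modelled. Its control libraries ran from 733.6 through a median of 850.6 to 935.6 CPM. With Herceptin they ran from 763.9 through 833 to 892.4, and with the biosimilar from 685.1 through 800.8 to 862.7, which left 2 biosimilar libraries below the lowest control. The log2 fold change was -0.0073 with Herceptin (SE 0.0532, 95% interval -0.12 to 0.1, edgeR adjusted p = 0.928) and -0.10 with the biosimilar (SE 0.0533, interval -0.21 to 0.0065, edgeR adjusted p = 0.116). Without control replicate 2, the lowest control library, the value with the biosimilar passed (edgeR adjusted p = 0.0401). It also passed when the model held a block for the replicate number (edgeR adjusted p = 0.00119). Over all alternatives the adjusted p ran from 0.00119 to 0.24. All counts of B2M were whole, so that none of its reads were divided with another gene.

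**Figure D2:**
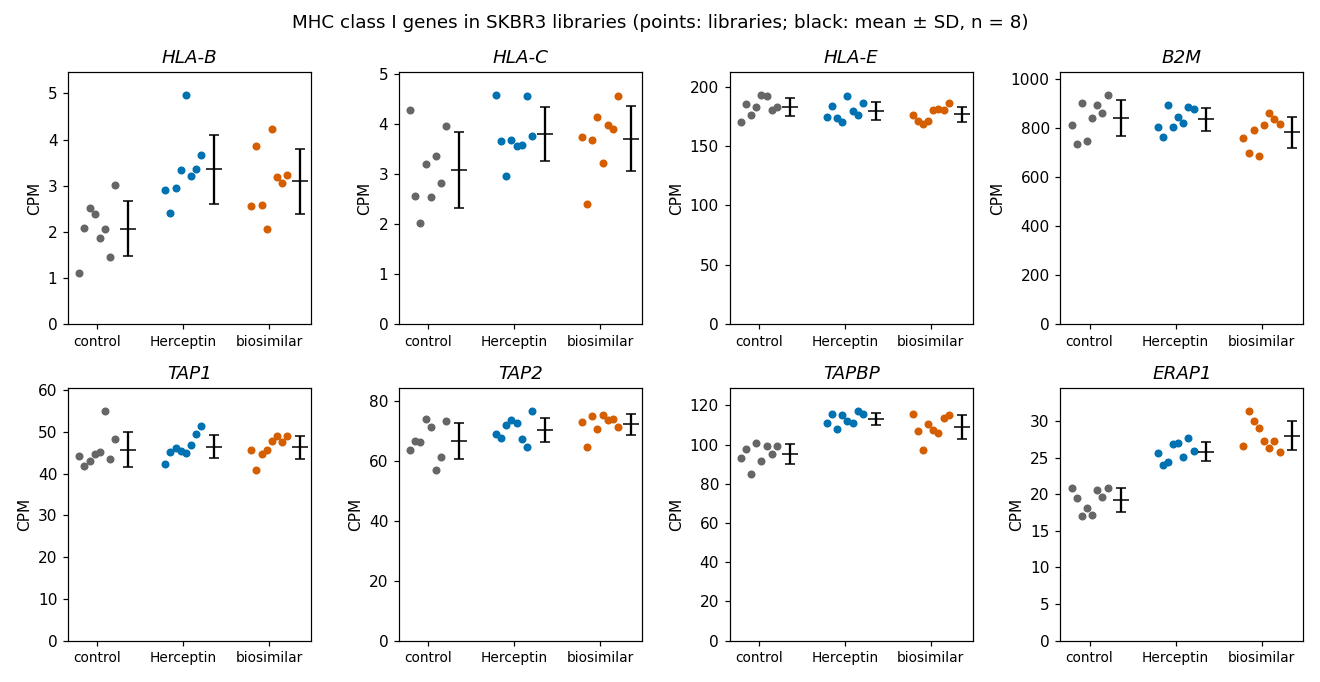
CPM of the 8 tested genes in each library (y axis from 0), with the mean and SD of each group of 8 in black. The ERAP1 libraries of both antibodies (23.99 CPM and above) lie clear of control (20.86 and below), TAPBP does so with Herceptin, and the other genes overlap between groups.

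The transporter genes moved little. TAP1 (chromosome 6, 32845209 to 32853978, minus strand) ran from 41.84 through a median of 44.4 to 55.01 CPM in control, from 42.35 through 45.83 to 51.36 with Herceptin and from 40.88 through 46.66 to 49.05 with the biosimilar. The highest library of all was a control, replicate 6. Its log2 fold changes were 0.025 (SE 0.0475, 95% interval -0.072 to 0.12, edgeR adjusted p = 0.707) and 0.02 (SE 0.0482, interval -0.077 to 0.12, edgeR adjusted p = 0.763). TAP2 (chromosome 6, 32821833 to 32838780, minus strand) ran from 57.09 through 66.62 to 74.07 CPM in control, from 64.58 through 70.72 to 76.76 with Herceptin and from 64.82 through 73.43 to 75.49 with the biosimilar. In each antibody group 7 of 8 TAP2 libraries were above the control median, and the groups overlapped. TAP2 rose 1.08-fold with the biosimilar (log2 fold change 0.12, SE 0.0443, edgeR adjusted p = 0.0288). With Herceptin its value of 0.081 (SE 0.0439, 95% interval -0.008 to 0.17) did not pass (edgeR adjusted p = 0.132). The rise with the biosimilar no longer passed when any 1 of control replicates 1, 6 and 7 or biosimilar replicates 3 and 5 was left out (edgeR adjusted p = 0.0573, 0.094, 0.071, 0.0501 and 0.0538; 0.00846 to 0.094 over all alternatives). Counts were not whole in 100% of libraries for TAP2 and 91.7% for TAP1. No other gene made up the fractions of TAP2 in more than 5 of 24 libraries, and PSMB8-AS1, an antisense RNA that overlaps the end of TAP1, did so for TAP1 in 7 of 22, so that both values are uncertain to an extent that the table does not show.

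TAPBP, the tapasin gene (chromosome 6, 33299694 to 33314387, minus strand), rose with both antibodies by a small amount that exceeded the spread. Its control libraries ran from 84.86 through a median of 96.32 to 101 CPM. With Herceptin they ran from 108.1 through 113.4 to 117.1, and with the biosimilar from 96.99 through 109 to 115.8. Every Herceptin library was above every control library. With the biosimilar 7 of 8 were above the highest control and replicate 3, at 96.99 CPM, was not. TAPBP rose 1.19-fold with Herceptin (log2 fold change 0.25, SE 0.0348, edgeR adjusted p = 1.44e-07) and 1.14-fold with the biosimilar (0.20, SE 0.0352, edgeR adjusted p = 1.35e-05).

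ERAP1 (chromosome 5, 96760810 to 96808100, minus strand) is the member outside the MHC that trims peptides in the endoplasmic reticulum, and it had the smallest p of the group with either antibody. Its control libraries ran from 17.05 through a median of 19.54 to 20.86 CPM. With Herceptin they ran from 23.99 through 25.74 to 27.68, and with the biosimilar from 25.8 through 27.33 to 31.37. No library of either antibody overlapped control. ERAP1 rose 1.34-fold with Herceptin (log2 fold change 0.42, SE 0.0525, edgeR adjusted p = 1.12e-08) and 1.45-fold with the biosimilar (0.54, SE 0.0526, edgeR adjusted p = 3.64e-11). Its counts had fractions in 100% of libraries, and no single gene made up the fractions in more than 5 of 24. Thus 2 of the 8 genes, TAPBP and ERAP1, lay clear of control with Herceptin, where 8.95% of all tested genes did so upward, and 1 of 8, ERAP1, with the biosimilar, where 7.19% did.

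**Figure D3:**
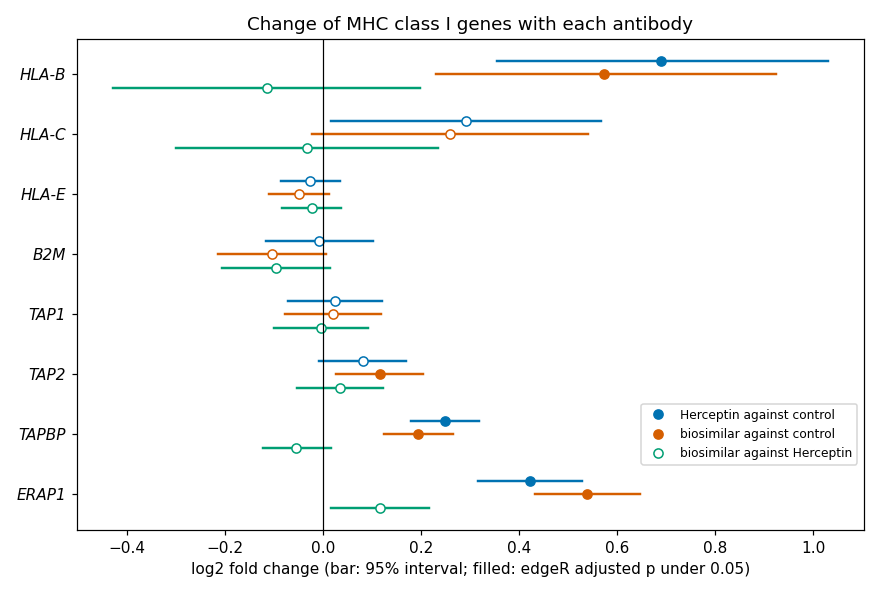
Log2 fold change of each tested gene with its 95% interval for Herceptin against control (blue), biosimilar against control (orange) and biosimilar against Herceptin (green); filled points passed edgeR at an adjusted p under 0.05. HLA-B (0.69 and 0.57), TAPBP (0.25 and 0.20) and ERAP1 (0.42 and 0.54) are filled for both antibodies, TAP2 for the biosimilar, and all green points are open.

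Between the biosimilar and Herceptin, 0 of the 8 genes passed edgeR, where 0% of all tested genes did. Of the 13536 genes, 722 had an unadjusted p under 0.05, a share close to the 0.05 that no difference would give. The smallest edgeR adjusted p was 0.273. Counts over all genes by other tools were 0 with limma-voom and 8 with DESeq2. ERAP1 was the single member with an unadjusted p under 0.05, at 27.99 ± 1.98 CPM against 25.81 ± 1.3 with Herceptin (SD, n = 8; log2 change 0.12, SE 0.0493, edgeR adjusted p = 0.893). B2M was at 782.4 ± 64 against 836.6 ± 46.8 CPM (-0.096, SE 0.0532, 95% interval -0.21 to 0.014, edgeR adjusted p = 0.939) and HLA-B at 3.098 ± 0.708 against 3.357 ± 0.752 (-0.12, SE 0.155, interval -0.43 to 0.2, edgeR adjusted p = 0.98). A p that misses the threshold does not show that the antibodies act alike, and a pair of one-sided edgeR tests against a 1.5-fold margin was therefore run. All 8 genes lay within the margin, with an adjusted p of at most 0.00257 (HLA-B), where 94.5% of all tested genes did. Within a margin of 1.2-fold, HLA-B (edgeR adjusted p = 0.204) and HLA-C (edgeR adjusted p = 0.0588) were no longer bounded. The widest 90% interval was that of HLA-B, -0.38 to 0.15 on the log2 scale.

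Among the other genes of peptide loading, TAPBPL rose, and of the 7 tested 1 rose and 2 fell with either antibody. This total was close to the 46.4% (Herceptin) and 48% (biosimilar) of all tested genes that passed. TAPBPL, whose product is a tapasin relative that edits peptides away from the transporter, went from 2.545 ± 0.494 CPM in untreated libraries to 3.601 ± 0.599 under Herceptin and 3.468 ± 0.617 under the biosimilar (SD, n = 8; log2 change 0.50, SE 0.136, edgeR adjusted p = 0.00226 with Herceptin; 0.45, SE 0.139, edgeR adjusted p = 0.0068 with the biosimilar). CANX, the gene of the chaperone calnexin that folds new heavy chains, went from 1636 ± 40.3 CPM to 1515 ± 35.3 and 1550 ± 49 and fell by 0.11 and 0.078 on the log2 scale (edgeR adjusted p = 0.000202 and 0.00681). GANAB, the glucosidase II subunit gene that prepares glycans for calnexin, fell by 0.13 and 0.092 (edgeR adjusted p = 0.000117 and 0.00387). CALR, the calreticulin gene, had values of -0.028 and -0.055 and did not pass (edgeR adjusted p = 0.452 and 0.11).

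Of the 5 immunoproteasome and PA28 genes, which shift proteasomes towards class I peptides, 2 rose and 1 fell with either antibody. Across all tested genes 46.4% passed with Herceptin and 48% with the biosimilar, and 5 genes are few to set against these shares. PSMB10, a catalytic subunit gene, went from 32.64 ± 2.34 CPM in untreated libraries to 38.37 ± 3.34 under Herceptin and 36.11 ± 3.6 under the biosimilar (SD, n = 8; log2 change 0.23, SE 0.0566, edgeR adjusted p = 0.00077 with Herceptin; 0.15, SE 0.0579, edgeR adjusted p = 0.0333 with the biosimilar). Some of this is uncertain, because every library held a fractional count of PSMB10. The PA28 subunit genes went opposite ways. PSME1 rose by 0.14 and 0.13 on the log2 scale (edgeR adjusted p = 0.00208 and 0.00393), while PSME2 fell by 0.13 and 0.17 (edgeR adjusted p = 0.0215 and 0.00269). PSMB8 and PSMB9, the catalytic subunit genes that lie beside TAP1 and TAP2, stood at 12.99 ± 1.85 and 1.414 ± 0.267 CPM in control and did not pass (edgeR adjusted p from 0.0934 to 0.96). Of their 3 constitutive counterparts, 2 fell with either antibody: PSMB5 by 0.23 and 0.20 (edgeR adjusted p = 1.17e-07 and 1.01e-06) and PSMB6 by 0.20 and 0.19 (edgeR adjusted p = 4.78e-05 and 0.00013).

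Transcription regulators of class I moved in both directions. Of 20 tested, 5 rose and 5 fell with Herceptin, against 4 up and 5 down with the biosimilar, with medians of -0.039 and -0.035 on the log2 scale, shares close to the 22.7% and 23.8% (Herceptin) and 23.4% and 24.6% (biosimilar) of all genes. IRF1, which binds interferon-type elements, went from 23.36 ± 1.36 CPM in untreated libraries to 32.84 ± 2.05 under Herceptin and 31.27 ± 1.3 under the biosimilar (SD, n = 8; log2 change 0.49, SE 0.0456, edgeR adjusted p = 9.77e-12 with Herceptin; 0.42, SE 0.0466, edgeR adjusted p = 8.36e-10 with the biosimilar). NFKB1 rose by 0.17 and 0.23 (edgeR adjusted p = 0.000225 and 2.96e-06). The others that rose with both antibodies were STAT2 and IRF9, which carry interferon signals to the nucleus. NLRC5, the class I coactivator, was barely detected, at 0.8568 ± 0.309 CPM in control, 1.449 ± 0.419 under Herceptin and 1.183 ± 0.238 under the biosimilar. It rose with Herceptin (log2 fold change 0.74, SE 0.224, edgeR adjusted p = 0.00564) and had a value of 0.45 with the biosimilar (SE 0.236, edgeR adjusted p = 0.108). The difference between the antibodies did not pass (edgeR adjusted p = 0.944). EZH2, a subunit gene of the repressive complex PRC2, fell by 0.25 and 0.21 (edgeR adjusted p = 4.32e-06 and 6.16e-05), and RFX5, a factor of the class I and II promoter complex, fell by 0.23 and 0.20 (edgeR adjusted p = 4.57e-06 and 8.98e-05). The other falls with both were SUZ12, ATF1 and RFXANK.

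Among 10 genes of interferon receptors and their JAK signalling, 3 rose and 2 fell with Herceptin, against 2 up and 2 down with the biosimilar. These totals were close to the 46.4% and 48% of all tested genes that passed. JAK1, a kinase bound to interferon receptors, went from 111.8 ± 5.62 CPM in control to 140.1 ± 4.52 and 141.6 ± 8.99 (SD, n = 8; log2 change 0.33, SE 0.0351, edgeR adjusted p = 4.59e-10 with Herceptin, and 0.34, SE 0.0353, adjusted p = 1.77e-10 with the biosimilar). IFNAR1, a receptor subunit for type I interferons, rose by 0.14 and 0.18 (edgeR adjusted p = 0.000563 and 1.14e-05), and its partner IFNAR2 rose with Herceptin (0.21, edgeR adjusted p = 0.00552) and had a value of 0.12 with the biosimilar (edgeR adjusted p = 0.133). PTPN2, a phosphatase that acts on JAK kinases, fell by 0.15 and 0.20 (edgeR adjusted p = 0.000972 and 2.66e-05), and SOCS3, an inhibitor of JAK signalling, by 0.46 and 0.58 (edgeR adjusted p = 0.00222 and 0.000199). The related inhibitor SOCS1 had values of -0.064 and -0.11 and did not pass (edgeR adjusted p = 0.725 and 0.556).

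Genes that control the turnover and surface level of class I molecules moved in both directions. Of 12 tested, 4 rose and 2 fell with Herceptin, against 5 up and 1 down with the biosimilar, a total close to the 46.4% and 48% of all genes that passed. The membrane proteins SUSD6 and TMEM127 are known to bring the ubiquitin ligase WWP2 to class I molecules. Each of these 3 genes rose with both antibodies, and they were not tested as a group. SUSD6 went from 47.25 ± 2.88 CPM in untreated libraries to 69.41 ± 3.88 under Herceptin and 70.55 ± 2.67 under the biosimilar (SD, n = 8; log2 change 0.55, SE 0.0391, edgeR adjusted p = 4.69e-15 with Herceptin; 0.58, SE 0.0394, edgeR adjusted p = 1.99e-15 with the biosimilar). TMEM127 rose by 0.18 and 0.17 (edgeR adjusted p = 4.78e-07 and 1.23e-06), and WWP2 by 0.14 and 0.21 (edgeR adjusted p = 0.0108 and 0.000264). SEL1L, part of the machinery that removes misfolded proteins from the endoplasmic reticulum, rose by 0.16 and 0.22 (edgeR adjusted p = 3.47e-05 and 1.46e-07). UBE2J2, a ubiquitin-conjugating enzyme of the same compartment, fell by 0.14 and 0.16 (edgeR adjusted p = 0.000871 and 0.000286). VCP rose with the biosimilar and IRGQ fell with Herceptin, each close to the threshold (edgeR adjusted p = 0.0474 and 0.0493).

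Of 15 genes of class I-like molecules and stress ligands, 7 were tested, of which 3 rose and 3 fell with Herceptin, against 2 up and 2 down with the biosimilar. Across all tested genes 46.4% passed with Herceptin and 48% with the biosimilar. The 7 genes, and the 2 class II genes below, are few to set against these shares. MR1, which presents vitamin metabolites to T cells and pairs with B2M, went from 14.64 ± 1.03 CPM in untreated libraries to 17.86 ± 1.2 under Herceptin and 18.62 ± 1.05 under the biosimilar (SD, n = 8; log2 change 0.29, SE 0.0555, edgeR adjusted p = 4.25e-05 with Herceptin; 0.35, SE 0.0561, edgeR adjusted p = 2.24e-06 with the biosimilar). AZGP1, a secreted protein with a class I fold, rose by 0.44 and 0.45 (edgeR adjusted p = 2.37e-05 and 1.79e-05). PROCR, the endothelial protein C receptor, whose fold resembles class I, went from 6.675 ± 0.943 to 3.821 ± 0.784 and 3.966 ± 0.269 CPM and fell by 0.81 and 0.74 (edgeR adjusted p = 6.88e-08 and 4.27e-07). ULBP1, ULBP3 and RAET1E encode ligands of NKG2D, an activating receptor of natural killer cells. ULBP1 rose with Herceptin (0.57, edgeR adjusted p = 0.000192) and had a value of 0.15 with the biosimilar (edgeR adjusted p = 0.419), and the antibodies' difference of -0.43 (SE 0.122) missed the threshold (edgeR adjusted p = 0.581). RAET1E fell with both antibodies and ULBP3 fell with Herceptin (edgeR adjusted p = 0.0378). RAET1E was barely detected, at 1.417 CPM in control and at most 20 counts in any library, with fractions in 91.7% of libraries. Of 12 class II genes, 2 were tested: HLA-DMA, a class II peptide exchange gene, rose by 0.43 and 0.41 (edgeR adjusted p = 0.000564 and 0.00102), and HLA-DQB1 rose with Herceptin (0.61, edgeR adjusted p = 0.00785) with a value of 0.31 with the biosimilar (edgeR adjusted p = 0.214). HLA-DQB1 was also near the floor, at 1.254 CPM in control and at most 37 counts in any library. The 3 class I pseudogenes in the table were too low to test.

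**Figure D4:**
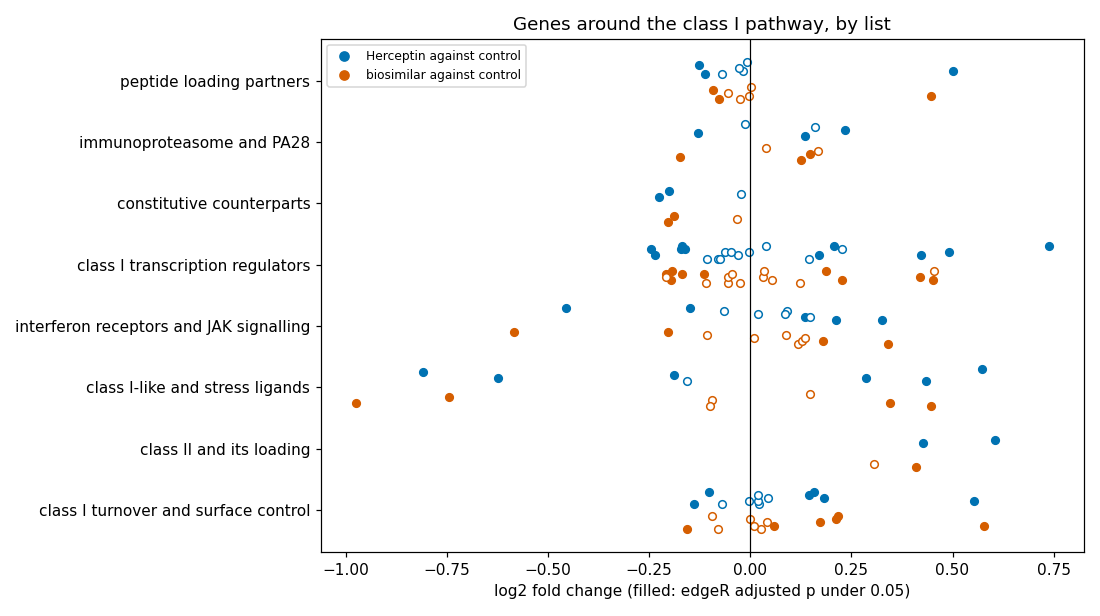
Log2 fold change of every tested gene of 8 lists around the class I pathway, Herceptin against control in blue and biosimilar against control in orange; filled points passed edgeR at an adjusted p under 0.05. TAPBPL (0.50 and 0.45) stands apart in the loading list, SUSD6 (0.55 and 0.58) in the turnover list and PROCR (-0.81 and -0.74) among class I-like genes, and most lists hold points on both sides of 0.

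Most of the genes described here lie in the MHC on chromosome 6, and their neighbours there moved in both directions. Of 97 other tested genes of that region, whose starts lie between positions 28570535 and 33453970, 9 rose and 26 fell with Herceptin (9.28% and 26.8%), and 6 rose and 29 fell with the biosimilar (6.19% and 29.9%), with median log2 fold changes of -0.063 and -0.10. Over all tested genes 22.7% rose and 23.8% fell with Herceptin, and 23.4% and 24.6% with the biosimilar. Of 551 tested genes in the rest of chromosome 6, 147 rose and 119 fell with Herceptin, against 156 up and 118 down with the biosimilar. The nearest tested genes beside TAPBP, RGL2 and ZBTB22, did not pass with either antibody (edgeR adjusted p from 0.516 to 0.915). GNL1, next to HLA-E, fell by 0.23 and 0.25 on the log2 scale (edgeR adjusted p = 3.31e-07 and 5.06e-08). On chromosome 5, CAST, the nearest tested gene on one side of ERAP1, rose by 0.31 and 0.29 (edgeR adjusted p = 4.9e-12 and 1.84e-11), and LNPEP on the other side did not pass (edgeR adjusted p = 0.254 and 0.695).

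Among libraries of the same group, the genes varied together only weakly. Over 28 pairs of the 8 tested genes, with group means removed (n = 24 libraries), Pearson's r of log2 CPM ran from -0.345 to 0.606 with a median of 0.122, and 0 pairs passed a permutation test within groups after Benjamini-Hochberg adjustment. The highest was B2M with TAP1 (r = 0.606, permutation p = 0.0025, adjusted p = 0.07; Spearman's rho = 0.59, permutation p = 0.00394, adjusted p = 0.11). Its r was 0.601 without the 2 libraries farthest from the median, and 0.509, 0.632 and 0.762 within control, Herceptin and biosimilar libraries. HLA-B and HLA-C, which divide reads, had r = -0.307. By the same measure, the genes most like the mean of the 8 were TFPI2 (r = 0.801), PLAAT4 (0.779), COPZ1 (0.743), NT5E (0.742) and PRNP (0.736), followed by MGST2, ANXA3, ATP1B1, RPLP0 and FTL (0.729 down to 0.718), over 24 libraries. These were picked as the highest of all tested genes of at least 1 CPM and are given as a description. Among them PLAAT4 and NT5E rose by 0.92 and 1.01 with Herceptin, while COPZ1 fell by 0.18. The 8 genes' own r with their mean ran from 0.142 (ERAP1) to 0.773 (TAP1). Likeness to the mean is thus not likeness to each of the 8.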

How the data were processed

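PolyA RNA of 24 SKBR3 libraries was sequenced as 126-base paired ends after stranded library preparation, per the labels' protocols. The authors deposited expected counts of genes, made with RSEM on GRCh38.p12 after STAR alignment and FastQC checks, per the submitters' processing notes. Which annotation release, trimming, strand setting and RSEM settings were used, and how reads of alleles other than the reference were treated, is not given in the sources used here. RSEM shares a read among the places it maps to, which gives counts with fractions.

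Expected counts were rounded, and filterByExpr kept 13536 of 60617 genes for testing. A single edgeR model (version 4.0.16, with limma 3.58.1 in R 4.3.3) took all 24 libraries and 3 groups, with TMM scaling, a prior count of 0.125 and robust quasi-likelihood F tests, adjusted over all genes tested, with a threshold of 0.05. The common biological coefficient of variation was 4.9%. Every pair of libraries within a group differed beyond sampling noise (chi-square per degree of freedom 1.517 to 7.909 over 84 pairs). Each library was counted as 1 replicate, although such spread can also be technical and does not show separate cultures. TPM was computed from the expected counts and the effective lengths deposited with them. Alternatives were other scalings, DESeq2 1.42.0, limma-voom, other filters, a replicate block, leaving out each library and a sum of HLA-B and HLA-C. The fits were tested on simulated data. Gene spans are from GENCODE v29. The genes, lists and tests were chosen with earlier results of these data known. All 9 genes are named. Of each other list, up to 4 tested genes with the smallest p are named, as are members of counts of 5 or fewer. Likeness was ranked by r over 24 libraries, and 10 genes are named. A gene of the regulator list is not reported here.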

Additional observations from a re-analysis of the deposited data

Results flagged for a closer look

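In 3 of 27 sets of 8 libraries examined (9 genes in 3 groups), 1 library stood far from the others of its group, by the share of the group's range that lay between it and its nearest neighbour. Chance gives about 1 such set in 20, a rate that does not hold for HLA-F, whose libraries mostly tie at 0 counts. HLA-F stood at 0.221 CPM in control replicate 5 and at 0.1766 CPM in biosimilar replicate 6, which is 2 expected counts in each library. TAP2 stood at 64.82 CPM in biosimilar replicate 2, the lowest of its group, whose median was 73.43.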

How the results depend on the processing

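HLA-B, TAPBP and ERAP1 kept their direction and their call against control under all alternatives run for them, with log2 fold changes of HLA-B from 0.591 to 0.791 with Herceptin and 0.484 to 0.676 with the biosimilar over the left-out libraries (edgeR adjusted p up to 0.0173). Its sum with HLA-C gave 0.471 and 0.398. Over all tested genes the replicate numbers did not pair libraries. Of 24 same-numbered pairs, 1 had a correlation of deviations over 0.1, and 3 correlated best with their own number. For B2M the biosimilar library was below the control library of the same number in 8 of 8 pairs. For TAPBP and ERAP1 this held in 0 of 8 with either antibody. Such counts follow the difference between groups and do not show pairing. The log2 deviations of B2M from the group mean in control, Herceptin and biosimilar were -0.192, -0.129 and -0.159 in replicate 2. They were 0.159, 0.0721 and 0.0659 in replicate 8, and differed in sign in replicate 6 (0.0928, -0.0279 and 0.145). With a replicate block HLA-C passed with Herceptin (0.299, adjusted p = 0.0448) and B2M was called lower with the biosimilar (-0.103, adjusted p = 0.00119), and 14 genes were lower with the biosimilar than with Herceptin. The counts of genes lower with the biosimilar than with Herceptin were 8 with DESeq2 and 11 without a filter on low counts, where 1 gene was higher. The sign of B2M with Herceptin turned with upper-quartile factors (0.000738) and over the left-out libraries, from -0.0334 to 0.0162. Between the antibodies, HLA-C ran from -0.079 to 0.036 and TAP1 from -0.023 to 0.0204 over the left-out libraries. The correlation of HLA-B with TAPBP was -0.000884 with library totals only. The cause was not tested for any of these. When genes whose counts were mostly not whole were left out, HLA-B, HLA-C, TAP1, TAP2 and ERAP1 had no value. Depth limits HLA-B, HLA-C and HLA-F most.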
